A study of Mus musculus with 8 samples.

Results

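The regions described here are stretches of liver chromatin that carried an ATAC-seq peak in every wild type, Cpt2 knockout and double knockout library and in neither Ppara knockout library. ATAC-seq reads out open DNA through a transposase that inserts sequencing adapters where chromatin is accessible. Of 49587 consensus regions, 645 met this rule, and 1.3% of all regions were therefore called this way. The regions were chosen by the peak calls of all 8 libraries, so the calls and the peak strengths below describe the regions and test nothing. The libraries came from livers of 9-week-old male C57BL/6 mice, all fasted for 24 h, with 2 libraries for each of 4 genotypes. The genotypes were WT, Cpt2 L-/- (a liver knockout of Cpt2), Ppara -/- (a Ppara knockout) and Cpt2 L-/- ; Ppara -/- (the liver Cpt2 knockout combined with a whole-body Ppara knockout). Neither the driver of the liver deletion nor whether the 2 libraries of a genotype came from separate animals is given in the sources used here, so any spread between them may be technical.

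Ppara encodes a nuclear receptor that binds fatty acids, pairs with the retinoid X receptor and switches on genes for fatty acid oxidation and ketone body synthesis in the fasting liver. Cpt2 encodes a carnitine palmitoyltransferase of the inner mitochondrial membrane, without which long-chain fatty acids cannot enter mitochondrial oxidation. In a liver that lacks Cpt2, fatty acids and their derivatives that would have been oxidised are thus left unburnt, whereas a liver that lacks Ppara cannot mount the receptor's part of the fasting response. The double knockout lacks both. The regions were therefore ones without a peak after loss of Ppara alone, yet with a peak when Cpt2 was lost as well.

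The promoter stretches below belong to the regions, because they show examples of the DNA found there at annotated gene starts. RefSeq windows on GRCm38.p6, the assembly of mm10, run from 250 bases before a gene's start to 50 after it, and 80 of the 645 regions overlapped 97 such windows of 88 genes. Only the 250 bases before the start are printed. Capitals mark each match to a searched motif, on either strand. Maz and Alb are starts at the highest ranked gene-end regions, Aldh1a7 is an example low in CpG, and Nqo1 comes from the stress gene list used below. The last pair was chosen for printing after the values were seen, although the region at Nqo1 is named by its list.
Maz, chr7:127027006-127027255, minus strand: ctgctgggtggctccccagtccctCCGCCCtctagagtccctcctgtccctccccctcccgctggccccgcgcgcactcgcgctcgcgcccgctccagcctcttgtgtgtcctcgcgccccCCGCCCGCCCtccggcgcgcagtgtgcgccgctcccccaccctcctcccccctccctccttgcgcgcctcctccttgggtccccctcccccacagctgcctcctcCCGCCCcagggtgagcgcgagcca
Alb, chr5:90460620-90460869, plus strand: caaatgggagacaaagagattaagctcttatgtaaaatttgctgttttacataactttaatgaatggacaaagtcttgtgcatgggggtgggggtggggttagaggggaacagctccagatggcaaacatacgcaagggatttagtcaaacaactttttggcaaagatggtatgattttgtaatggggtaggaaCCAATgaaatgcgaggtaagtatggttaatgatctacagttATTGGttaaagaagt
Aldh1a7, chr19:20727557-20727806, minus strand: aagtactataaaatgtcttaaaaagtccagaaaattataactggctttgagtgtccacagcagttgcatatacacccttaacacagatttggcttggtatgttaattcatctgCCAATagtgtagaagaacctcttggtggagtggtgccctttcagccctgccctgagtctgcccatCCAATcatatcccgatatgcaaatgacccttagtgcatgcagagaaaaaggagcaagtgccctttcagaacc
Nqo1, chr8:107403206-107403455, minus strand: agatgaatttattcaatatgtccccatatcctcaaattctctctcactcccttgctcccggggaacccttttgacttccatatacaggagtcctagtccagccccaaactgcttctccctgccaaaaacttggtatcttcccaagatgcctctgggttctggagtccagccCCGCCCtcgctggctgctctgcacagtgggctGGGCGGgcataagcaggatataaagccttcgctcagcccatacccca

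The printed stretches, picked as stated above, differed in composition. The 300-base windows of Maz, which encodes a zinc finger protein that binds GC-rich DNA, and of Nqo1, a quinone reductase, had 74.3% and 53.7% G or C, with 25 and 5 CpG dinucleotides. The windows of Alb, which encodes serum albumin, and of Aldh1a7, an aldehyde dehydrogenase gene, had 40% and 44% G or C, with 3 and 1 CpG. In Alb the motif CCAAT lay 56 bases before the start, and its complement lay 15 bases before it. Maz held GGGCGG only on the strand opposite to the gene, at 4 places. The 97 windows overlapped by the regions had a median of 64.7% G or C and 25 CpG. That lay close to the 63% and 24 CpG of the 7049 windows overlapped by regions called in all 8 libraries, and above the 52.7% and 7 CpG of all 32817 windows.

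Motifs were searched on both strands of the 300-base windows. GGGCGG, the core of the GC box, was in 65% of the windows overlapped by the regions, in 35.6% of all windows and in 70.5% of windows overlapped by regions called in all 8 libraries. CCAAT was in 22.7%, 37.4% and 43% of these sets, respectively. CACGTG, the E-box read by clock and MYC family factors, was in 13.4%, 7.15% and 10% of them. The nuclear receptor half-site AGGTCA was in 13 of the 97 windows (13.4%), in 16.3% of all windows and in 11.9% of windows overlapped by regions called in all 8 libraries. The direct repeat DR1, which is AGGTCA repeated with 1 base between and so also holds AGGTCA, is the site type bound by PPARA with the retinoid X receptor, and it matched 0 of the 97 windows and 0.0396% of all windows. The forkhead core TGTTTAC was in 2.06% of the windows at the regions and 3.65% of all windows. The AP-1 core TGACTCA was in 3.09% and 5.205%, and the CREB core TGACGTCA in 2.06% and 1.79%. Windows overlapped by regions called in all 8 libraries had 2.4%, 2.98% and 3.43% for these 3 cores. Windows overlapped by regions with peaks everywhere except in double knockout held GGGCGG in 61.5%, CCAAT in 33.3%, CACGTG in 12.5% and AGGTCA in 14.6%. Sequence at the regions away from annotated starts was not analysed here.

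The data were 8 lists of peaks, 1 per library, and no read counts or signal per region. The Ppara-intact lists (wild type and Cpt2 knockout) held 28733 to 39296 peaks, the Ppara knockout lists 20340 and 18283, and the double knockout lists 22715 and 18132. Each peak name carried a library number, which was 441, 443, 446 or 4717 for Ppara-intact lists and 6831 to 6834 for the others. It separated Ppara status, and it was 6833 and 6834 in Ppara knockout and 6831 and 6832 in double knockout, so it also ordered these genotypes. What that number stands for is not given in the sources used here, and its part in the results was not tested. As a check of the tissue, all 8 hepatocyte marker genes had a region within 1 kb of a gene end, and for 5 of them (Alb, Apoa1, Apob, Hnf4a and Ttr) a region was called in all 8 libraries. Among markers of other liver cell types, 1 of 9 leukocyte, 1 of 6 endothelial, 4 of 7 stellate and fibroblast and 2 of 4 cholangiocyte genes had a region there, none called in all 8 libraries.

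The pattern was more frequent for the Ppara-null genotypes than for the others. Regions with peaks everywhere except in double knockout numbered 487 (0.982% of all regions), those missing only in wild type 38 (0.0766%), and those missing only in Cpt2 knockout 6 (0.0121%). The lists differ in length. When each was shortened to its strongest 18132 peaks, these counts were 203, 72 and 43, beside 257 missing only in Ppara knockout. The contrast was thus smaller in lists of equal length. At a −log10 q of at least 20, those missing only in wild type and Cpt2 knockout numbered 5 and 2. The 4 Ppara-intact libraries and neither Ppara knockout library called 5457 regions. Of these, 3384 (62%) were in no double knockout list, 1428 (26.2%) were in 1 of them, and the 645 regions (11.8%) were in both. With the Ppara-null genotypes exchanged, 5134 regions were in the 4 Ppara-intact lists and in neither double knockout list. Of those, 3384 (65.9%), 1263 (24.6%) and 487 (9.49%) were in no, 1 and both Ppara knockout lists. The majority without a double knockout peak did not hold in equal-number lists (each list's strongest 18132 peaks), where 402 of 961 such regions were in no double knockout list. It did not hold without Ppara knockout 1 either, with 4145 of 8945. The excess of 645 over 487 was not tested and its direction turned with the library left out. It was 1228 against 1248 without Ppara knockout 2, and 955 against 1859 without double knockout 1, a setting that relaxes the rule for the double knockout by construction.

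**Figure D1:**
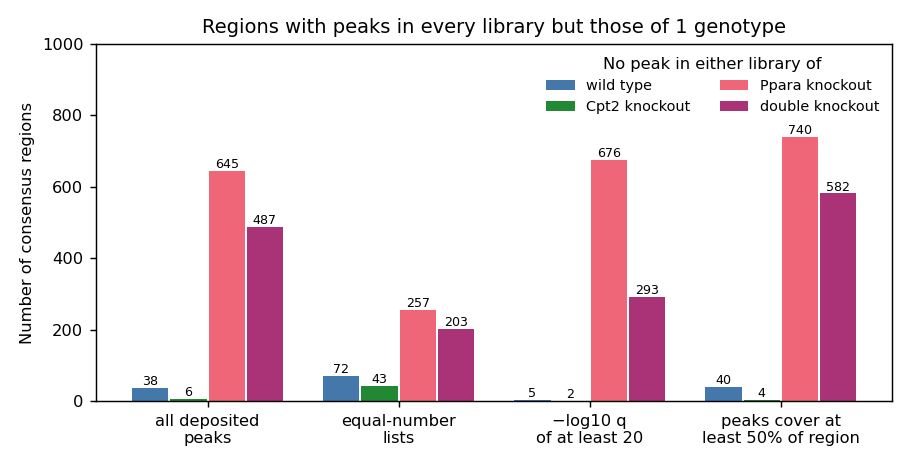
Number of consensus regions called in every library except the 2 of 1 genotype (bars, y axis), with all deposited peaks and under each alternative on the x axis. Regions missing only in Ppara knockout number 645 with all peaks and 257 when each list is shortened to its strongest 18132 peaks, above those missing only in double knockout (487 and 203) in each setting drawn; settings that leave out a library are not drawn, and the order turned in some of them.

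The threshold of the rule lies in the peak caller's cutoff. A missing peak is not a missing signal: the lowest −log10 p in a deposited list was 7.115 to 7.823, and weaker signal leaves no entry. Just outside the rule lay 2168 regions called in all 6 libraries and in 1 Ppara knockout library, 1585 of them in Ppara knockout 1 and 583 in Ppara knockout 2. Their Ppara knockout peaks had a median −log10 p of 17.5 (8.54 to 52.0), and 65.3% were under 20. Just inside, the weaker double knockout peak of a region had a median −log10 p of 15.1, with the lowest at 7.82. It was under 10 in 24 regions, at least 20 in 98 and at least 30 in 13. The peaks that decide membership on either side of the rule were thus mostly weak ones.

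The regions held peaks of middling rank in the Ppara-intact lists, where 45.3% to 68.2% of them lay above the list's median. In double knockout 1 and 2 that share was 31.8% and 19.7%. Strength is given as the deposited −log10 p and as its percentile within its own list, where 100 is the strongest peak. The mean percentile over the 645 regions was 47.1 and 52.1 in wild type, 57.7 and 54.1 in Cpt2 knockout, and 38.5 and 32.6 in double knockout 1 and 2 (49.6 ± 3.53, 55.9 ± 2.53 and 35.5 ± 4.22, SD, n = 2 each). The median −log10 p was 26.7 and 40.5 in wild type, 45.1 and 37.4 in Cpt2 knockout, and 18.4 and 16.3 in double knockout. Both double knockout libraries stood below all 4 Ppara-intact ones on either measure, and regions called in all 8 libraries also had lower percentiles there (medians of 72.3 and 64.4, against 78.6 to 84 in the Ppara-intact lists). The lists differ in length, so these ranks show no change between genotypes.

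The deposited fold, the pileup at a peak's summit over its local background, told the same order. Its median at the regions was 6.14 and 7.28 in wild type, 7.73 and 6.94 in Cpt2 knockout, and 5.41 and 5.08 in double knockout. Over all consensus regions the median fold was 6.63 to 7.52 in the Ppara-intact lists and 6.13 and 6.04 in double knockout. The median width of the strongest peak was 339 to 383 bp in the Ppara-intact lists and 286 and 255 bp in double knockout. Over all consensus regions it was 364 to 380 bp and 345 and 332 bp, so lower double knockout values were not particular to the regions. The consensus regions themselves were 268 to 1338 bp wide, with a median of 430 bp, against 381 bp for all consensus regions and 640 bp for those called in all 8 libraries.

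**Figure D2:**
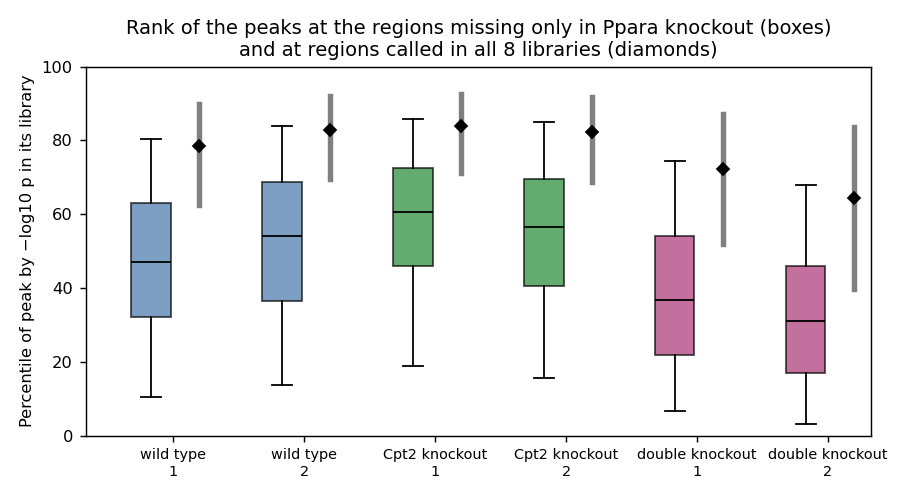
Percentile of the peak by −log10 p within its own library (y axis) for the 645 regions in the 6 libraries that call them (boxes, quartiles and median, whiskers at the 5th and 95th percentiles), beside the median (diamond) and quartiles (grey bar) of regions called in all 8 libraries. The boxes lie below the diamonds in every library and lowest in double knockout 2, with a median of 31.

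Compared with regions called in the 4 Ppara-intact libraries only, the regions held stronger peaks in those same lists. Their mean percentiles of 47.1 to 57.7 there stood against 30.5 to 44.5 for the 3384 Ppara-intact-only regions. They stood against 36.8 to 52.5 for the 487 regions missing only in double knockout. Regions just outside the rule, with 1 Ppara knockout peak, had mean percentiles of 54.6 to 64.6. The regions thus lay between sites called only with Ppara intact and sites with more Ppara-null calls, an order that follows in part from the calls that define each set.

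Summits of the regions lay about as close between genotypes as in regions called in all 8 libraries. In the 613 regions with exactly 1 peak in each of the 6 libraries, the summits of wild type 1 and 2 lay a median of 20 bp apart, and those of double knockout 1 and 2 lay 29 bp apart. Between wild type and double knockout the median distance was 30 bp over the 4 pairs of libraries, and 67.7% of distances were at most 50 bp. Regions called in all 8 libraries gave 20, 26 and 29 bp for the same comparisons. A Ppara knockout peak lay within 1 kb of 80 regions (12.4%) and within 10 kb of 363 (56.3%). The median distance to the nearest one was 8045 bp. These distances were not taken for other sets of regions.

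**Figure D3:**
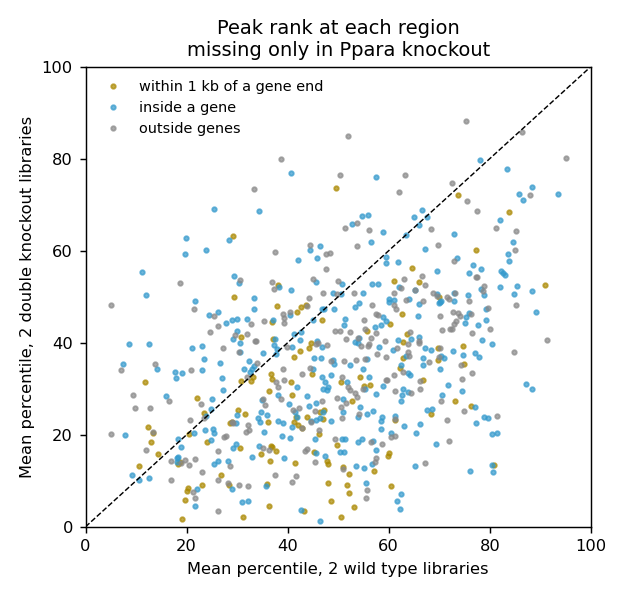
Mean percentile of each of the 645 regions in the 2 double knockout lists (y axis) against that in the 2 wild type lists (x axis), with 1 point a region and colour for its place; the dashed line marks equal percentiles in lists that differ in length. Points lie above the line for 159 regions (24.7%), beside 21.5% of regions called in all 8 libraries. The median difference, double knockout minus wild type, is -15.2, beside -10.5 for regions called in all 8 libraries.

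The regions lay mostly away from gene ends. Within 1 kb of either end of a protein-coding gene lay 115 (17.8%), inside a gene but farther from its ends lay 301 (46.7%), and outside genes lay 229 (35.5%). Over all consensus regions the shares were 26%, 41.8% and 32.3%, and over regions called in all 8 libraries 52%, 28.6% and 19.3%. The place of the regions resembled that of the 3384 Ppara-intact-only regions, with 19%, 45.8% and 35.2%. Regions missing only in double knockout lay at gene ends in 37.4% of cases, a larger share than the 17.8% here. Without Ppara knockout 2 the rule took in 1228 regions missing only in Ppara knockout and 1248 missing only in double knockout. Their gene-end shares were 30.4% and 30.9%, respectively, and in equal-number lists 10.9% and 39.9%. The gap was thus nearly absent in the first setting and present in the second, and its cause was not tested. No test over regions was made, since regions of the same libraries are not replicates.

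**Figure D4:**
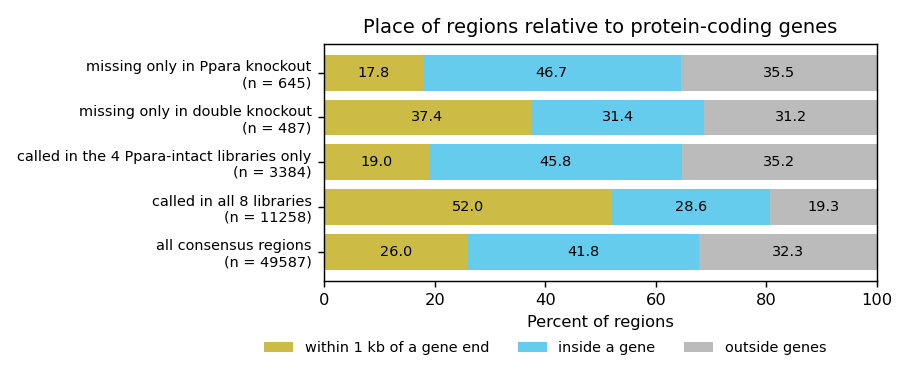
Percent of regions (x axis) within 1 kb of a gene end, inside a gene and outside genes, for 5 sets of regions (rows, with their number n). The top bar, for regions missing only in Ppara knockout, has 17.8% at gene ends, near the 19% of Ppara-intact-only regions and below the 37.4% of regions missing only in double knockout.

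Gene-end regions were the weaker ones among the 645. Their median percentile in double knockout 1 and 2 was 26.4 and 22, against 39.1 and 32 for regions inside genes and 41.8 and 33.6 for those outside genes. In wild type 1 and 2 the medians were 43.9 and 46.5 at gene ends, 47.3 and 57 inside genes and 48.8 and 54.7 outside. The regions were spread over 19 autosomes and X, making up 0.843% of consensus regions on chromosome 16 and 1.88% on chromosome 19, the extremes among autosomes, with 8 on X. They were nearest to 609 protein-coding genes, 560 of which had 1 region, 43 had 2, 5 had 3 and Gse1 had 4.

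The highest ranked regions were chosen by the rank of their peaks in the 6 libraries that called them. Not every peak there was strong: among the 12 highest, double knockout 2 was at a percentile of 51.6 at Lipc and 52.2 at Acsm1. Members were ranked by their mean percentile over these 6 lists, which ran from 9.24 to 88.7 with a median of 46.9. The first lay on chromosome 17 (19713867 to 19714245), 19119 bp from Vmn2r102, a vomeronasal receptor gene. Its −log10 p was 141 and 135 in wild type, 120 and 98.5 in Cpt2 knockout, and 57.7 and 29.2 in double knockout, and the nearest Ppara knockout peak was 1230735 bp away. The double knockout peaks were weaker in −log10 p than all 4 others.

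The next lay inside Tbc1d1, which encodes a Rab GTPase-activating protein of insulin-responsive glucose uptake (chromosome 5, 64325838 to 64326844). Its −log10 p was 109 and 136 in wild type, 121 and 152 in Cpt2 knockout, and 30.4 and 34.2 in double knockout. The third lay inside Elp4, an Elongator subunit gene (chromosome 2, 105867854 to 105868233), with 142 and 79.5, 64.0 and 99.9, and 40.0 and 28.2 in the same order. By −log10 p, both double knockout peaks lay below the other 4 in both regions. By percentile the libraries overlapped at Elp4, where double knockout 1 was at 79.36, wild type 2 at 79.32 and Cpt2 knockout 1 at 73.5.

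A region 129561 bp from Trib1, a pseudokinase gene linked to hepatic lipid synthesis, lay on chromosome 15 (59786660 to 59787127). Its −log10 p was 68.0 and 111 in wild type, 52.8 and 60.9 in Cpt2 knockout, and 40.2 and 54.8 in double knockout. Here the values overlapped: double knockout 2 exceeded Cpt2 knockout 1. The next in rank lay 18836 bp from Nkx2-6 (chromosome 14, 69152445 to 69152966), inside Pik3c2g, a liver phosphoinositide kinase gene (chromosome 6, 139877786 to 139878188), and inside Acsm1, a medium-chain acyl-CoA synthetase gene (chromosome 7, 119620136 to 119620621). Their mean percentiles were 80.9, 80.5 and 78.5. By −log10 p, double knockout 1 exceeded wild type 1 at Pik3c2g (43.8 against 40.5) and Cpt2 knockout 2 at Acsm1 (57.0 against 50.65).

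The remaining regions of the 12 highest lay inside Rgs8 (chromosome 1, 153683393 to 153683773), inside Lipc (chromosome 9, 70939682 to 70940506) and inside Tead4 (chromosome 6, 128285716 to 128286095). Others lay 2531 bp from Rwdd3 (chromosome 3, 121174312 to 121174943) and inside D130043K22Rik (chromosome 13, 24889585 to 24889987). Their mean percentiles were 77.5 to 78.3. Lipc encodes hepatic lipase, and its region had a −log10 p of 68.1 and 97.8 in wild type, 97.6 and 88.0 in Cpt2 knockout, and 33.6 and 21.3 in double knockout. Tead4 encodes a partner of the YAP coactivator, and Rgs8 a regulator of G protein signalling. At Rgs8 double knockout 1 exceeded Cpt2 knockout 1 by −log10 p (59.3 against 54.3). All 12 kept a peak in the 6 lists when every list was shortened to its strongest 18132 peaks. That follows largely from their choice by rank in these lists, and shortening cannot add a Ppara knockout peak.

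**Figure D5:**
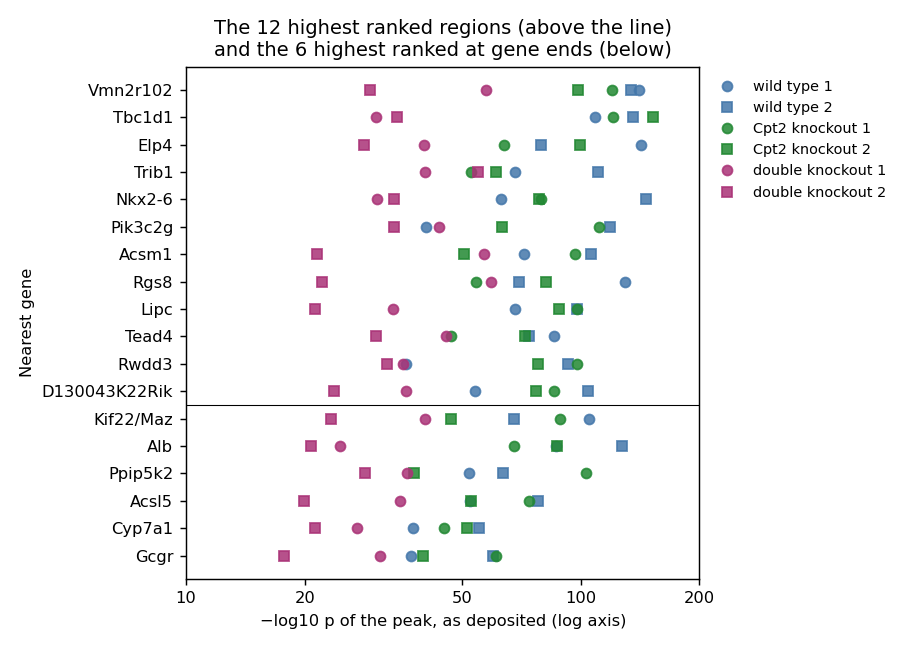
Deposited −log10 p (x axis, log scale) of the peak at each of the 12 highest ranked regions and of the 6 highest ranked at gene ends, named by their nearest gene, with 1 symbol for each of the 6 libraries that call them. Both double knockout libraries lie left of all 4 Ppara-intact ones at Alb, where they are at 24.6 and 20.7. They overlap them at Trib1, Pik3c2g, Acsm1 and Rgs8.

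The 6 highest ranked gene-end regions lay at Kif22 and Maz, Alb, Ppip5k2 and Gin1, Acsl5, Cyp7a1 and Gcgr. The region over the start of Alb, whose promoter is printed above, spanned 90460515 to 90461037 on chromosome 5. Its −log10 p was 86.4 and 128 in wild type, 67.8 and 87.3 in Cpt2 knockout, and 24.6 and 20.7 in double knockout. No Ppara knockout peak lay there, although another region within 1 kb of an end of Alb was called in all 8 libraries. The nearest Ppara knockout peak was 7304 bp from this region.

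At Cyp7a1, which encodes the rate-limiting enzyme of bile acid synthesis, a region lay over a gene end (chromosome 4, 6275604 to 6276047; gene end at 6275632). Its −log10 p was 37.7 and 55.4 in wild type, 45.1 and 51.6 in Cpt2 knockout, and 27.1 and 21.3 in double knockout. At Gcgr, the glucagon receptor gene, the region spanned 120528856 to 120529271 on chromosome 11, over the gene end at 120529185, with 37.1 and 60.1, 61.0 and 39.9, and 31.1 and 17.7. At Acsl5, a long-chain acyl-CoA synthetase gene, it spanned 55251700 to 55252143 on chromosome 19, with 52.4 and 78.0, 74.0 and 52.7, and 34.8 and 19.9. In all 3 the double knockout peaks were below the 4 Ppara-intact ones in −log10 p. By percentile within the list, double knockout 1 overlapped them in all 3. At Cyp7a1 it was at 61.2, with Cpt2 knockout 1 at 60.5. At Gcgr it was at 68.1, with wild type 1 at 62.0, and at Acsl5 at 73.6, with Cpt2 knockout 2 at 71.1. All 3 regions kept their peaks in the equal-number lists, which lends no support, since they were picked for high rank.

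The other 2 high-ranking gene-end regions were at Kif22 and Maz (chromosome 7, 127026808 to 127027763) and near ends of Gin1 and of Ppip5k2, an inositol pyrophosphate kinase gene (chromosome 1, 97769224 to 97769617). The first had a −log10 p of 105 and 67.8 in wild type, 88.6 and 47.0 in Cpt2 knockout, and 40.4 and 23.3 in double knockout. The latter lay 181 bp from a Ppara knockout peak that did not overlap it. At Aldh1a7 the region over the start ranked 118, and another region lay inside the gene. The region at Nqo1 (chromosome 8, 107403005 to 107403759) had a −log10 p of 20.8 and 35.8 in wild type, 29.5 and 22.0 in Cpt2 knockout, and 16.7 and 25.7 in double knockout, so the groups overlapped.

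Genes of fatty acid oxidation and other PPARA targets held 7 of the regions. Of 313 consensus regions nearest to the 51 genes of that list, 2.24% met the rule, against 1.3% of all consensus regions. Another 53 (16.9%, against 6.82%) were called in the 4 Ppara-intact libraries only. Missing only in double knockout were 0, against 0.982% of all regions, and none of these shares was tested. At Cpt1a, the outer-membrane carnitine palmitoyltransferase, regions lay inside the gene at 3326245 to 3326856 and at 3353687 to 3354076 on chromosome 19. The first had a −log10 p of 44.6 and 49.5 in wild type, 51.4 and 32.3 in Cpt2 knockout, and 43.5 and 20.5 in double knockout, so double knockout 1 lay within the Ppara-intact range.

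The region of this list with the highest rank lay 4743 bp from Cd36, a fatty acid uptake receptor gene (chromosome 5, 17776586 to 17776947). It had a −log10 p of 116 and 56.5 in wild type, 62.7 and 73.8 in Cpt2 knockout, and 48.1 and 19.4 in double knockout. The others lay inside Acot4, a peroxisomal acyl-CoA thioesterase gene (chromosome 12, 84042274 to 84042650), and inside Creb3l3, a fasting transcription factor gene (chromosome 10, 81094226 to 81094546). At Ppara itself, regions lay 51690 bp away (chromosome 15, 85682866 to 85683220) and inside the gene (85771303 to 85771660). The latter was weak, at 18.1 to 34.0 in the Ppara-intact lists and 18.0 and 13.8 in double knockout, and a Ppara knockout peak lay 167 bp from it.

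Lipid synthesis genes held 9 of the regions among 194 nearest to their 25 genes (4.64%, against 1.3% of all regions). Of the 194, 2 (1.03%, near the 0.982% of all regions) were missing only in double knockout. The highest ranked lay inside Gpam, which encodes the acyltransferase that begins glycerolipid synthesis (chromosome 19, 55119534 to 55120019). Its −log10 p was 54.5 and 82.7 in wild type, 84.2 and 98.6 in Cpt2 knockout, and 29.7 and 16.9 in double knockout. Regions lay near Insig1 and Insig2, whose products hold back SREBP processing, at 66820 bp and 3096 bp.

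At Insig1 (chromosome 5, 28004034 to 28004592) the −log10 p was 35.2 and 45.6 in wild type, 95.5 and 94.7 in Cpt2 knockout, and 21.0 and 13.9 in double knockout. The Cpt2 knockout peaks stood above both wild type ones there. At Insig2 (chromosome 1, 121335758 to 121336196) they overlapped, with 42.5 and 72.3 in wild type and 53.1 and 60.0 in Cpt2 knockout. Dgat2, the last step of triglyceride synthesis, had a region 17584 bp away (chromosome 7, 99200297 to 99200668), with 17.9 and 38.0 in wild type, 66.3 and 73.4 in Cpt2 knockout, and 21.3 and 14.5 in double knockout. It too had stronger peaks in both Cpt2 knockout libraries than in wild type, by −log10 p.

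Acacb, the mitochondrial acetyl-CoA carboxylase gene whose product's malonyl-CoA restrains CPT1, held 2 regions inside the gene (chromosome 5, 114155152 to 114155567 and 114175557 to 114176117). The latter had a −log10 p of 58.7 and 85.2 in wild type, 98.6 and 36.0 in Cpt2 knockout, and 14.0 and 12.2 in double knockout. It was 1 of the 5 regions whose double knockout mean percentile fell farthest short of the wild type one, 13.3 against 80.4. Weaker regions lay inside Acly (ATP citrate lyase), Lpin1 and Lpin2 (phosphatidate phosphatases), at mean percentiles of 21.9, 37.6 and 26.8.

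Among 18 glucose and insulin response genes, 4 of 207 regions (1.93%) met the rule, near the 1.3% of all regions. Missing only in double knockout were 0, against 0.982% of all regions. Besides Tbc1d1, regions lay inside Irs1, an insulin receptor substrate gene (chromosome 1, 82234607 to 82234985), 73522 bp from Irs1 (82159169 to 82159583) and 176882 bp from Foxo1 (chromosome 3, 52526991 to 52527678). The region inside Irs1 had a −log10 p of 27.8 and 85.3 in wild type, 48.2 and 56.5 in Cpt2 knockout, and 27.0 and 18.6 in double knockout. Wild type 1 was thus nearly as low there as double knockout 1. Of 114 regions nearest to 22 bile acid and xenobiotic genes, that at Cyp7a1 was the single one (0.877%, against 1.3% of all regions).

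Clock and stress genes held 4 of 199 regions (2.01%, against 1.3% of all regions), and 3 of the 199 (1.51%, against 0.982%) were missing only in double knockout. The 4 lay inside Per2 (chromosome 1, 91436289 to 91436987), 4904 bp from Cry1 (chromosome 10, 85189958 to 85190461), inside Rora (chromosome 9, 69339231 to 69339656) and at Nqo1. Per2 and Cry1 encode repressors of the core clock loop and Rora a nuclear receptor that feeds into it. At Rora the −log10 p was 27.4 and 55.3 in wild type, 81.2 and 73.4 in Cpt2 knockout, and 35.4 and 34.6 in double knockout, so wild type 1 was lower than both double knockout libraries. At Per2 it was 47.5 and 84.7, 51.0 and 49.3, and 24.0 and 24.4, with double knockout below the rest in −log10 p.

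Liver transcription factor genes held 6 of 365 regions (1.64%), near the 1.3% of all regions. Of the 365, 1 (0.274%, against 0.982% of all regions) was missing only in double knockout. Among the 6 were regions 33508 bp from Prox1 (chromosome 1, 190204335 to 190205064), inside Thrb and Rxra, and 2429 bp and 8264 bp from Cebpa (chromosome 7, 35116498 to 35116864 and 35130192 to 35130662). Rxra encodes the partner receptor of PPARA, and its region (chromosome 2, 27702291 to 27702653) had a −log10 p of 21.6 and 27.4 in wild type, 24.2 and 19.9 in Cpt2 knockout, and 21.9 and 18.5 in double knockout. These values overlapped fully, and a Ppara knockout peak lay 747 bp away. At Prox1, a hepatocyte homeobox gene, they were 41.0 and 47.1, 70.3 and 39.3, and 43.7 and 29.3, again with overlap.

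Genes of liver secreted proteins held 4 of 121 regions (3.31%, against 1.3% of all regions), and 0 of the 121 were missing only in double knockout (0.982% of all regions). Besides Alb these lay 2976 bp from Fgb (fibrinogen beta chain), 29029 bp from Serpina1a (an alpha-1 antitrypsin) and 79899 bp from Apob. The region at Fgb (chromosome 3, 83038942 to 83039270) had a −log10 p of 48.9 and 65.2 in wild type, 50.7 and 48.9 in Cpt2 knockout, and 37.3 and 17.9 in double knockout. Hepatocyte marker genes held 3 of 89 regions (3.37%), those of Alb, Fgb and Apob. Among other cell types, markers of endothelium held 1 of 44 (2.27%) and those of leukocytes 0 of 7. Markers of stellate cells and fibroblasts held 1 of 18 (5.56%), and those of cholangiocytes 1 of 16 (6.25%). With at most 1 region each, these shares allow no ranking. Missing only in double knockout was 1 of the 18 for stellate cells and fibroblasts (5.56%), and 0 in the other marker lists. The 3 regions of other cell types lay inside Stab2 (sinusoidal endothelium), and at 229368 bp from Dcn (fibroblasts) and 223123 bp from Sox9 (cholangiocytes). None of these 3 lay at a gene end.

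Among the 609 nearest genes, those with more than 2 of the regions were picked for that count. Over all consensus regions, 1.3% met the rule. Gse1, which encodes a protein of histone deacetylase complexes, had 4 inside the gene (chromosome 8, between 120409321 and 120539203) of 37 consensus regions nearest to it. Arid1b, a SWI/SNF subunit gene, had 3 of 43, Rbfox2, a splicing factor gene, 3 of 24, and Galnt2, a glycosyltransferase gene whose product modifies lipoprotein regulators, 3 of 18. Smad6, an inhibitory SMAD gene, had 3 of 18, and Nek6, a mitotic kinase gene, 3 of 13. No count was tested.

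Some regions (24.65%) ranked higher in the double knockout lists than in the wild type ones, near the 21.5% of regions called in all 8 libraries. The widest such gaps in mean percentile were inside Mrvi1 (11.1 in wild type, 55.3 in double knockout), inside Mapre3 (25.4 and 69.1), 44114 bp from Ier3 (4.95 and 48.1), inside Arnt (19.9 and 62.8) and 4251 bp from Olfr61 (38.7 and 80.0). Arnt encodes the dimer partner of hypoxia and dioxin receptors. Its region (chromosome 3, 95439600 to 95439993) had a −log10 p of 12.4 and 24.3 in wild type, 13.6 and 23.4 in Cpt2 knockout, and 28.5 and 25.2 in double knockout, above all 4 Ppara-intact values. By −log10 p this was the only one of the 645 regions with both double knockout peaks above all 4, and in 407 both lay below all 4. By percentile within the list these counts were 13 and 266. None of these counts was made for other sets of regions. Lower −log10 p in double knockout was not particular to the regions: both wild type values exceeded both double knockout ones in 69.3% of them and in 83.7% of regions called in all 8 libraries.

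Near Olfr61 (chromosome 7, 140632994 to 140633452) both knockouts of Cpt2 stood above wild type by −log10 p: 29.2 and 21.3 in wild type, 59.6 and 58.4 in Cpt2 knockout, and 37.8 and 39.4 in double knockout. Near Ier3, an immediate early gene (chromosome 17, 35776900 to 35777599), they were 11.4 and 13.2, 24.98 and 45.2, and 20.3 and 21.8. Of these 5 regions, those near Olfr61 and Ier3 were the ones in which all 4 libraries without Cpt2 exceeded both wild type ones. The opposite extreme, with double knockout farthest below wild type, held regions inside Gse1 (80.6 and 11.95), at Mcrip1 (80.7 and 13.5), inside Acacb, inside Gypc (76.2 and 12.2) and inside Igfbp5 (81.4 and 20.3).

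The regions farthest from any protein-coding gene lay 975414 bp from Nmbr (chromosome 10, 15746872 to 15747280), 925817 bp from Gpc5 (chromosome 14, 114165990 to 114166384) and 617954 bp from Sorcs3 (chromosome 19, 49423459 to 49423992). They were ordinary in strength, with mean percentiles of 64.6, 55.4 and 49.2. The lowest ranked of all lay at ends of Golga4, Rgs7 and Ago2, with mean percentiles of 11.3, 10.6 and 9.24. The region at Ago2, the slicing Argonaute gene (chromosome 15, 73184515 to 73184938), had a −log10 p of 20.5 and 13.2 in wild type, 10.1 and 11.8 in Cpt2 knockout, and 12.5 and 9.29 in double knockout, and a Ppara knockout peak lay 301 bp away.

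The list length touched the membership. In lists shortened to the strongest 18132 peaks, 257 regions were missing only in Ppara knockout, and 203 of these were among the 645 (31.5% of the 645 and 79% of the 257). Of the 645, 502 kept peaks in both double knockout lists and 231 in all 4 Ppara-intact lists, which lose more peaks when shortened. At a −log10 q of at least 20, 676 regions were missing only in Ppara knockout, but 35 of them were among the 645 (5.43% and 5.18% of the sets). The other 641 had a weaker Ppara knockout peak in the deposited lists. Of the 203, 17 lay within 1 kb of a gene end.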

How the data were processed

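The authors deposited 1 narrowPeak list for each of 8 ATAC-seq libraries of fasted mouse liver. BWA, MACS2 2.1.0 and mm10 are named in the submitters' processing notes. Peaks were called per library, per the file headers and peak names; duplicate handling and the transposase offset are not given in the sources used here. The deposited score is 10 times the −log10 p rounded down (in 99.99% to 100% of peaks of a list). The deposited fold is the ratio of summit pileup to local background, and the deposited −log10 p and −log10 q are MACS2's. A further deposited file gave consensus positions, identical to the 49587 merged regions of the 8 lists. Read depth is not in these files, so no counting interval is given for a peak.

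From these, a region was called in a library when it shared 1 bp or more with a peak (bedtools 2.31.1, Python 3.11.15, pandas 2.3.3, NumPy 2.4.6). The strongest peak gave the strength. Nearest genes were taken from RefSeq positions of 21900 protein-coding genes on GRCm38.p6, without strand or exons. Starts and sequences came from its promoter table. Named were the 12 highest and 3 lowest ranked regions, the 6 highest at gene ends, the 3 farthest from genes, the 5 at each extreme of double knockout minus wild type percentile, members at listed genes, and genes with 3 or more. Aldh1a7 was added to the named genes after its values were seen. The Aldh1a7 and Nqo1 sequences were chosen for printing after their values were seen. A gene that this rule also names is not reported here. Lists, members and alternatives were chosen with earlier results of these data known. No test was made, because the rule used all calls. The calls were checked on simulated data.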

Additional observations from a re-analysis of the deposited data

How the results depend on the processing

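No paired analysis was possible because no result comes from a test: the regions were chosen by the calls of all 8 libraries, and the Ppara knockout libraries have no peak value at them. In equal-number lists (each list's strongest 18132 peaks), 257 regions were missing only in Ppara knockout and 203 only in double knockout. Among regions that all Ppara-intact lists held and both Ppara knockout lists lacked, 402 were then in no and 302 in 1 double knockout list, and 26.7% were in both. The share within 1 kb of a gene end was 10.9%, and mean percentiles were 45.1 in wild type, 43.6 in Cpt2 knockout and 40.2 in double knockout. These lists hold fewer peaks by construction. At a −log10 q of at least 20, 293 regions were missing only in double knockout, 65.2% of them at gene ends. For those missing only in Ppara knockout the gene-end share was 21.3%, mean percentiles were 59.9 in wild type and 67.0 in Cpt2 knockout, and 10.1% of regions without a Ppara knockout peak were in both double knockout lists. With peaks covering at least 50% of a region, the gene-end shares were 24.3% and 47.6%, mean percentiles 59.0, 64.1 and 46.8 in wild type, Cpt2 knockout and double knockout, and the share in both double knockout lists 10.8%. The cause was not tested for these 2 settings. At a distance of 5 kb the gene-end share was 32.7%, a wider window by construction.

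With each library left out in turn, the rule asks for fewer libraries and counts rise by construction. Regions missing only in Ppara knockout then numbered 649 to 2230, most without Ppara knockout 1, with 1228 without Ppara knockout 2 and 1763 without double knockout 2. Regions missing only in double knockout numbered 493 to 1859. Regions in no double knockout list numbered 3579 to 5875 and in 1 list 1472 to 2570, and 8.80% to 32.3% were in every double knockout list. Gene-end shares were 17.5% to 30.4% and, for regions missing only in double knockout, 30.9% to 41.7%. Mean percentiles were 45.6 to 56.2 in wild type, 51.4 to 63.2 in Cpt2 knockout and 29.7 to 44.2 in double knockout. The alternatives for the gene-end share of regions missing only in double knockout were chosen after seeing the data.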
